A study of Rattus norvegicus with 6 samples.

Results

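The AP-1 and Egr immediate early genes were described here as 10 named genes, Fos, Fosb, Fosl1, Fosl2, Jun, Junb, Jund, Atf3, Egr1 and Egr2, out of 15037 genes with a symbol on the arrays. They were taken by their gene symbol, each has 1 probeset, and all 10 passed the filter on dim genes that left 11515 genes for testing. RNA came from CD31+ endothelial cells of dermal blood vessels in the abdominal skin of Sprague-Dawley rats. The 3 IL-33 knock-out rats (27 and 28, female; 52, male) were compared with 3 wildtype rats (34 and 45, female; 37, male). In both groups the skin had been digested with collagenase I and DNase I for 2 h at 37 °C and cells carrying CD45 or Lyve-1 had been removed on magnets, so no array shows undigested tissue or cells kept in place. Neither the rats' age nor the structure of the Il33 allele is given in the sources used here. All values are RMA signals, read here as log2 expression, where a difference of 1 is then a doubling. The p-values and SEs come from limma and rest on the spread between animals, with each gene's spread drawn towards that of all genes tested.

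Immediate early genes are transcribed within minutes of a stimulus from factors already present in the cell. MAP kinases phosphorylate ternary complex factors bound with serum response factor, and other kinases act on CREB and on Jun. Fos proteins pair with Jun proteins through a leucine zipper to form AP-1, which binds TGANTCA elements; Atf3 pairs with Jun proteins or with itself. Egr proteins bind GC-rich elements with zinc fingers. In endothelium these factors respond to shear, growth factors and wounding, and enzymatic dissociation of tissue is known to induce them in many cell types.

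RefSeq promoters of assembly GRCr8 were found for 7 of the 10 genes; Fos, Jun and Atf3 had no entry. The 250 bases before the start were searched on both strands for the CArG box of serum response factor, the cAMP response element TGACGTCA, its core TGACG, the AP-1 site TGANTCA and the Egr site GCGNGGGCG. Shown are Jund and Fosl2, the members whose signal varied most between animals, and Egr2, which shares elements with Egr1. Capitals mark the matches.
Jund: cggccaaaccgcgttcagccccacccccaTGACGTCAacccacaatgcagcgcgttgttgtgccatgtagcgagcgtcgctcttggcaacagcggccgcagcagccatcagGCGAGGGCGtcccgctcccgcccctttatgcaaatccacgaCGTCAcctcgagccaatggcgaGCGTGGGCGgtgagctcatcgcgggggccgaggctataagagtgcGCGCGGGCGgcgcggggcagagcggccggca
Fosl2: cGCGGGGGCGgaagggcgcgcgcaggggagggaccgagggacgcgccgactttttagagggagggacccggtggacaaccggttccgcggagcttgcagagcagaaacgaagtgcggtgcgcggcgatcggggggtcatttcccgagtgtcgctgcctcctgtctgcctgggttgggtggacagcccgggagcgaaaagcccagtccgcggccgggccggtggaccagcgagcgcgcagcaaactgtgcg
Egr2: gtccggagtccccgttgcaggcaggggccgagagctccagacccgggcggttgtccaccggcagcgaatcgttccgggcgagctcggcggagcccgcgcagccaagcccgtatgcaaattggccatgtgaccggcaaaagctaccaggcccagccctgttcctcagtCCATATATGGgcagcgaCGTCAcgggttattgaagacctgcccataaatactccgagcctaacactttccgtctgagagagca
The Jund sequence is chr16:18769772-18770021, that of Fosl2 chr6:30039270-30039519 and that of Egr2 chr20:21054442-21054691, all on the minus strand of GRCr8 and all upstream of the gene. The Egr2 sequence holds the CArG box CCATATATGG beginning 83 bases before the start and a core element beginning at 66. The same box and core element begin 83 and 66 bases before the start of Egr1, which has a second CArG box, CCATATTAGG, at 105 and another core element at 135. A CArG box was found in these 2 members and in 1.5% of the 33469 promoters of the table. Jund holds 1 full element TGACGTCA, at 221, which contains 2 overlapping core elements, a further core element at 98, and Egr sites at 139, 76 and 31. The full element was found in 1.59% of promoters, its core in 18.2% and the Egr site in 4.29%. Fosl2 holds 1 Egr site, at 249. Fosl1 holds 2 core elements and Junb 1, while none of these elements was in the Fosb window. The AP-1 site, found in 6.34% of promoters, was in none of the 7 member promoters. These matches describe sequence and do not show that a protein was bound.

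The labels and the cell identity were checked first. Il33, the gene targeted, had 8.07, 8.37 and 9.82 in knockouts 28, 27 and 52, against 13.86, 16.32 and 16.60 in wildtypes 34, 45 and 37, a difference of -6.84 (SE 0.73; limma adjusted p = 0.0439). The knockout values of Il33 lay above the highest background probeset of their arrays (5.42 to 5.50). Of 12 blood endothelial markers 11 were measured, and their mean was 15.13 to 15.29 in the knockout and 14.72 to 15.08 in the wildtype arrays. Markers of other skin cells varied between animals. The mean of the 5 keratinocyte markers measured of 11 was 8.30 to 11.44 in the knockout and 8.07 to 14.00 in the wildtype, with 14.00 in wildtype 34 and 11.44 in knockout 28; Ivl was at background. For 8 fibroblast markers it was 8.79 to 9.79 against 8.92 to 11.22, and for 10 pericyte and smooth muscle markers 10.13 to 10.94 against 9.26 to 10.88. For the 6 lymphatic markers measured of 7 it was 7.81 to 9.66 against 5.99 to 9.37. For the 9 leukocyte markers measured of 10 it was 5.15 to 5.71 against 5.08 to 6.59, and 5 of them (Cd3e, Cd79b, Itgam, Tyrobp and Aif1) did not exceed the highest background probeset on any array. For the 5 erythroid markers measured of 7 it was 8.12 to 11.05 against 6.67 to 8.74, with Alas2 and Slc4a1 at background. In sorted RNA, a change in the number of such cells and a change of RNA per cell cannot be told apart. The 8 bacterial and phage control transcripts averaged 10.12 to 10.42 on arrays 28, 34 and 45 and 8.82 to 9.33 on arrays 27, 52 and 37.

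All 10 genes gave signal above the highest of 23 background probesets on every array. Fosl1 came closest to background, by 1.43 on one array, and Egr1 was farthest from it. Egr1, the zinc finger factor that gives the family its name, lay at the top of the scale. Its values were 19.76, 19.77 and 19.72 in knockouts 28, 27 and 52, against 19.76, 19.67 and 19.67 in wildtypes 34, 45 and 37. On arrays 28 and 34 Egr1 equalled the array maximum, and on the others it lay 0.01 to 0.26 under the maximum. Its mean distance to the array maximum was 0.085, within the 0.5 chosen as near the ceiling, where 0.339% of all genes tested lay. A difference in Egr1 could therefore be hidden. Of the other members Atf3 came next nearest the maximum, 1.72 to 2.44 under it, so 9 of 10 genes lay outside the 0.5 window. Whether the probes of those genes were compressed below the array maximum was not tested. Probes of different genes bind with different strength, so the signals give no order of abundance between the genes.

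**Figure D1:**
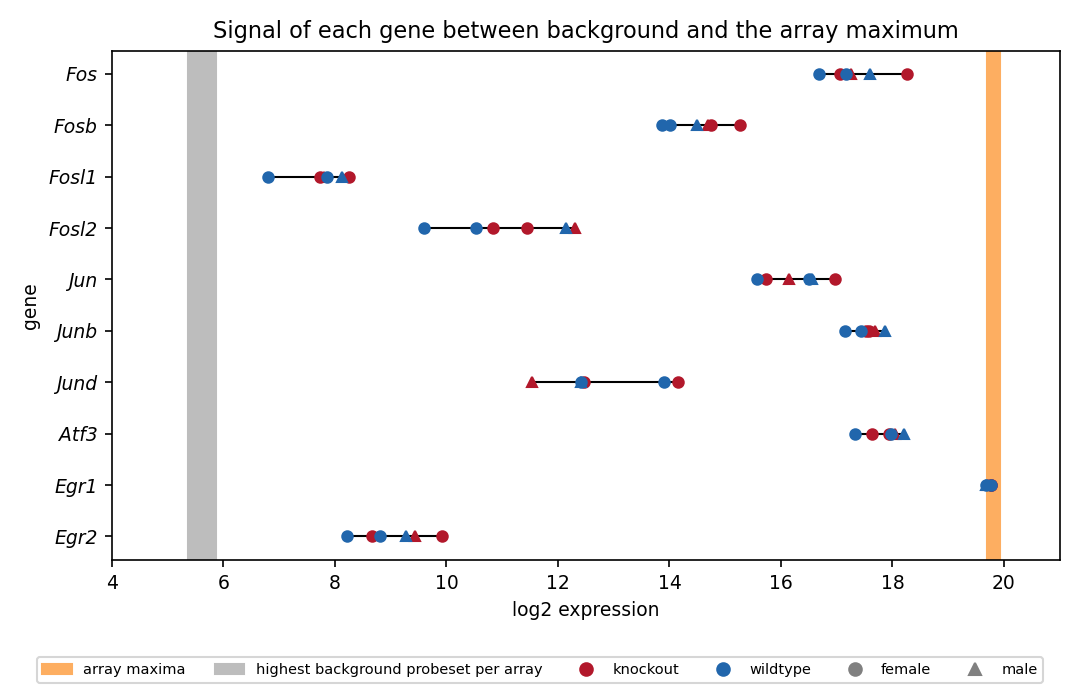
The log2 expression (horizontal axis) of each gene (rows) on the 6 arrays, red for knockout and blue for wildtype, circles for females and triangles for males. The orange band spans the array maxima (19.70 to 19.93) and the grey band the highest background probeset of each array (5.36 to 5.87); Egr1 touches the orange band, while Fosl1 is the gene nearest the grey one.

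The comparison of genotypes asks whether endothelial cells of IL-33 knock-out rats carry other levels of these genes after isolation. None of the 10 genes passed limma at an adjusted p of 0.05, where Il33 alone, 0.00868% of the 11515 genes, passed. At an unadjusted p under 0.05 there was 1 member, Fosb, against 1.97% of all genes tested. The estimates were above 0 in 9 of 10 members, where 53.8% of all genes had an estimate above 0, and their median was 0.23, against 0.037 over all genes. Leaving out wildtype 45 gave a median of 0.10 with 7 estimates above 0, and leaving out knockout 28 gave 0.14, also with 7. Leaving out wildtype 37 gave 0.45 with 9, and leaving out knockout 52 gave 0.39 with 9.

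Fosb was the only member whose groups did not overlap. The full-length Fosb protein, like Fos, carries a transactivation domain. The knockouts and wildtypes were apart, with 15.27, 14.74 and 14.69 in knockouts 28, 27 and 52, against 14.01, 13.86 and 14.49 in wildtypes 34, 45 and 37. Every knockout array thus lay above every wildtype array, as for 3.36% of all genes tested, with 0.20 between knockout 52 and wildtype 37. The means were 14.90 ± 0.32 and 14.12 ± 0.33 (SD, n = 3 each), a difference of 0.78 (SE 0.34, 95% interval 0.01 to 1.55; limma adjusted p = 0.999). Among females the difference was 1.07, and between the males 0.20. Fosb no longer had an unadjusted limma p under 0.05 on leaving out any array but wildtype 37, nor with the filter at the 50th percentile, the trend and robust options of eBayes, the control signal as a block, the keratinocyte mean as a covariate or repeated quantile normalization, where the difference was 0.62.

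Fos, the founding partner of Jun in AP-1, overlapped between genotypes. It had 18.26, 17.05 and 17.25 in knockouts 28, 27 and 52, against 17.17, 16.69 and 17.60 in wildtypes 34, 45 and 37. Knockout 28 stood highest, and the other knockout arrays lay within the wildtype range. The difference was 0.37 (SE 0.42, 95% interval -0.57 to 1.31; limma adjusted p = 0.999), and it was -0.0033 without knockout 28, 0.14 without wildtype 45, 0.60 without knockout 27 and 0.59 without wildtype 37.

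Fosl1 and Fosl2 encode the Fos-related antigens Fra-1 and Fra-2, which lack the transactivation domain of Fos and usually follow it later in a response. Fosl1 had 7.74, 8.26 and 7.80 in knockouts 28, 27 and 52, against 7.86, 6.79 and 8.12 in wildtypes 34, 45 and 37. Wildtype 45 was low and the other 5 arrays lay within 0.52 of each other; the difference was 0.34 (SE 0.41; limma adjusted p = 0.999), -0.057 without wildtype 45, 0.18 without knockout 27 and 0.61 without wildtype 37. Fosl2 had 11.45, 10.83 and 12.30 in knockouts 28, 27 and 52, against 10.53, 9.59 and 12.14 in wildtypes 34, 45 and 37. Its range of 2.71 was the widest of the members. Both males stood above all females, and within each sex the knockout animals stood above the wildtype animals. The genotype difference was 0.77 (SE 0.63, 95% interval -0.64 to 2.18; limma adjusted p = 0.999), with 1.08 among females and 0.16 between males. It was 0.19 without wildtype 45, 0.39 without knockout 52 and 1.47 without wildtype 37.

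Of the Jun proteins, Jun is the strong activator of AP-1, Junb often restrains it, and Jund is usually present without stimulation and changes little. Jun had 16.96, 15.73 and 16.14 in knockouts 28, 27 and 52, against 16.50, 15.57 and 16.55 in wildtypes 34, 45 and 37. The groups covered nearly the same range, with a difference of 0.070 (SE 0.43, 95% interval -0.89 to 1.03; limma adjusted p = 0.999) that was -0.060 with repeated quantile normalization. Junb had 17.58, 17.53 and 17.68 in knockouts 28, 27 and 52, against 17.15, 17.43 and 17.86 in wildtypes 34, 45 and 37. Its knockout values lay inside the wildtype range, with a difference of 0.12 (SE 0.33, 95% interval -0.61 to 0.85; limma adjusted p = 0.999).

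Jund varied between animals of one genotype more than between genotypes. It had 14.15, 12.46 and 11.54 in knockouts 28, 27 and 52, against 13.90, 12.42 and 12.42 in wildtypes 34, 45 and 37. Knockout 28 and wildtype 34 stood together at the top, 1.44 above the next array, and knockout 52 stood alone at the bottom. The genotype difference was -0.20 (SE 0.66, 95% interval -1.67 to 1.28; limma adjusted p = 0.999), the only estimate below 0 among the members. It was -0.91 without knockout 28, -0.44 without wildtype 45 or 37, 0.30 without wildtype 34 and 0.39 without knockout 52. Arrays 28 and 34 also had the highest keratinocyte means (11.44 and 14.00, against 8.07 to 11.19 elsewhere), the highest fibroblast means (9.79 and 11.22, against 8.79 to 8.96) and high control transcripts; their part in the Jund signal was not tested. Array 45, with control transcripts of 10.12 and a keratinocyte mean of 11.19, had the same Jund value as array 37, with 8.91 and 8.07. The Jund genotype difference was 0.285 with high or low control signal as a block. It was 0.40 with the keratinocyte mean as a covariate.

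Atf3, a stress-induced factor that often represses its targets, had 17.64, 17.94 and 18.05 in knockouts 28, 27 and 52, against 17.32, 17.98 and 18.21 in wildtypes 34, 45 and 37. The groups overlapped throughout, with a difference of 0.040 (SE 0.35, 95% interval -0.75 to 0.83; limma adjusted p = 0.999) that was -0.051 with repeated quantile normalization. Egr2, an Egr factor best known from myelinating glia and lymphocytes, had 9.92, 8.66 and 9.43 in knockouts 28, 27 and 52, against 8.81, 8.21 and 9.27 in wildtypes 34, 45 and 37. Knockout 28 stood highest and wildtype 45 lowest, and the difference was 0.57 (SE 0.43, 95% interval -0.39 to 1.53; limma adjusted p = 0.999). It was 0.28 without knockout 28, 0.30 without wildtype 45 and 0.91 without knockout 27. Egr1 differed by 0.050 (SE 0.30; limma adjusted p = 0.999) at the ceiling. The upper bound of the 95% interval exceeded 1, a doubling in the knockout if the values are log2, for 7 members, all but Junb, Atf3 and the ceiling-bound Egr1. The lower bound was under -1 for Jund alone.

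**Figure D2:**
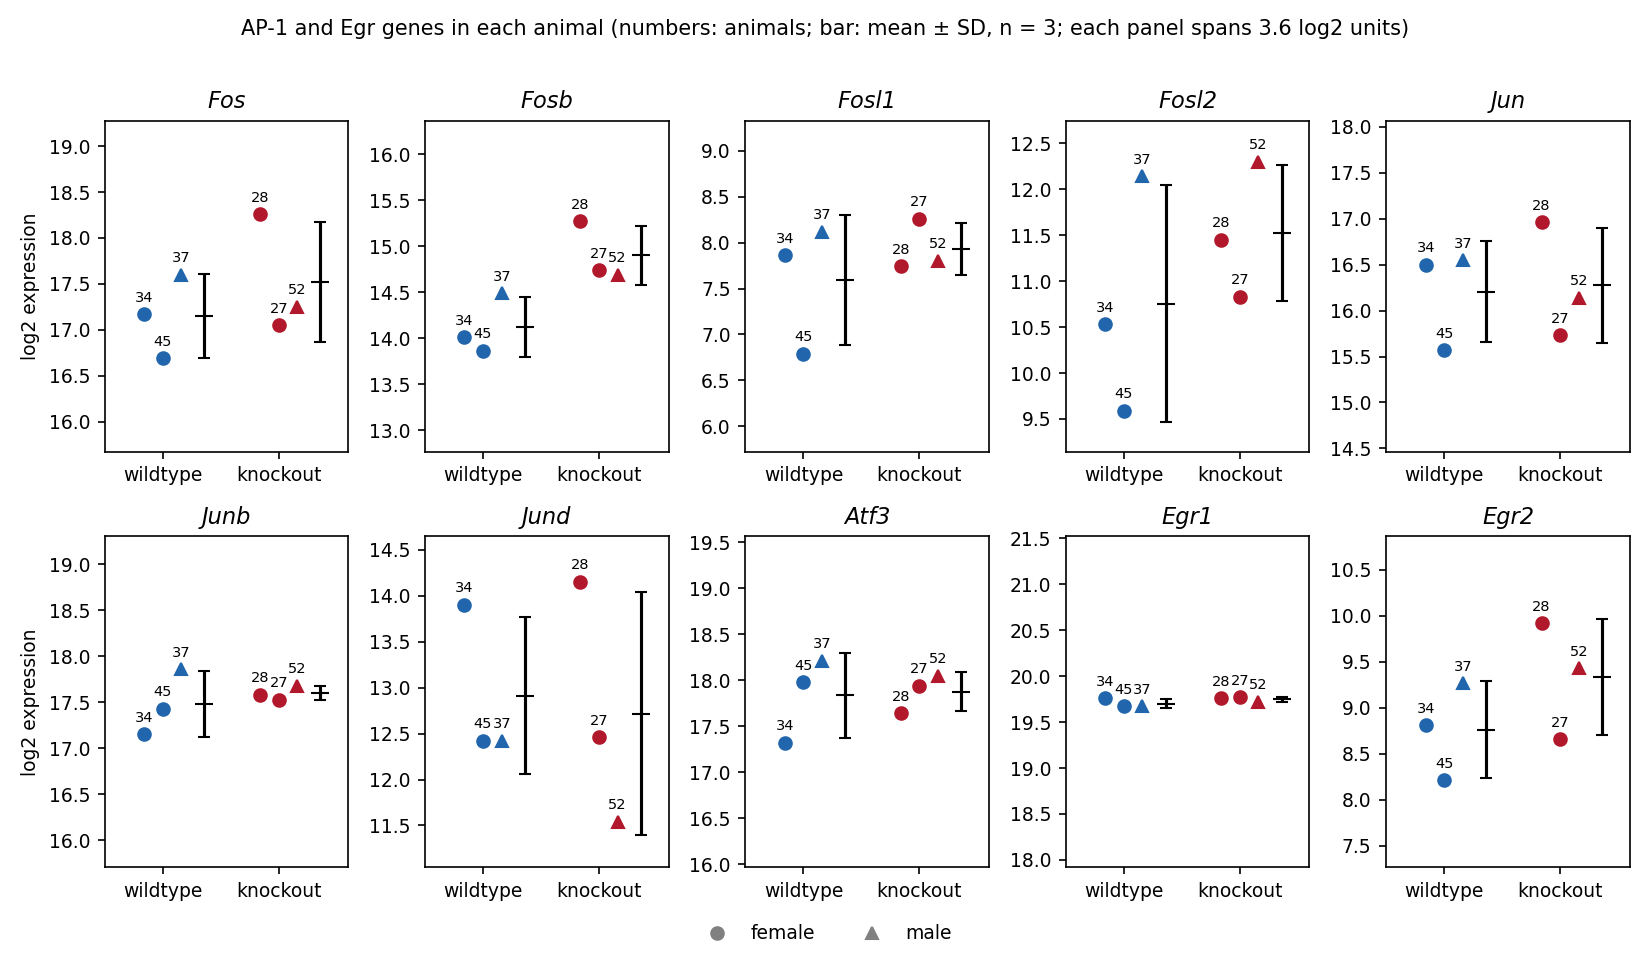
The log2 expression (vertical axis) of each gene in the wildtype (blue) and knockout (red) animals, numbered, with circles for females, triangles for males and black bars for mean ± SD (n = 3). The Fosb groups are separate, the Jund values of animals 28 and 34 lie apart from the rest, and Egr1 shows almost no spread.

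The animals were not ordered alike by every member. Junb and Atf3 were highest in wildtype 37 and lowest in wildtype 34, and Fosl2 was highest in both males. Knockout 28 gave the highest value of 5 members (Fos, Fosb, Jun, Jund and Egr2) and wildtype 45 the lowest, ties included, of 7 (Fos, Fosb, Fosl1, Fosl2, Jun, Egr1 and Egr2). Over all genes tested, array 28 was highest for 14.3% and array 45 lowest for 24.3%. With each gene centred on its own mean, the average of the 10 members was 0.48 in knockout 28 and -0.58 in wildtype 45. In the other arrays it was -0.10 in wildtype 34, -0.10 in knockout 27, 0.063 in knockout 52 and 0.24 in wildtype 37. The 2 animals at the extremes were both females with high control transcripts (10.26 and 10.12).

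**Figure D3:**
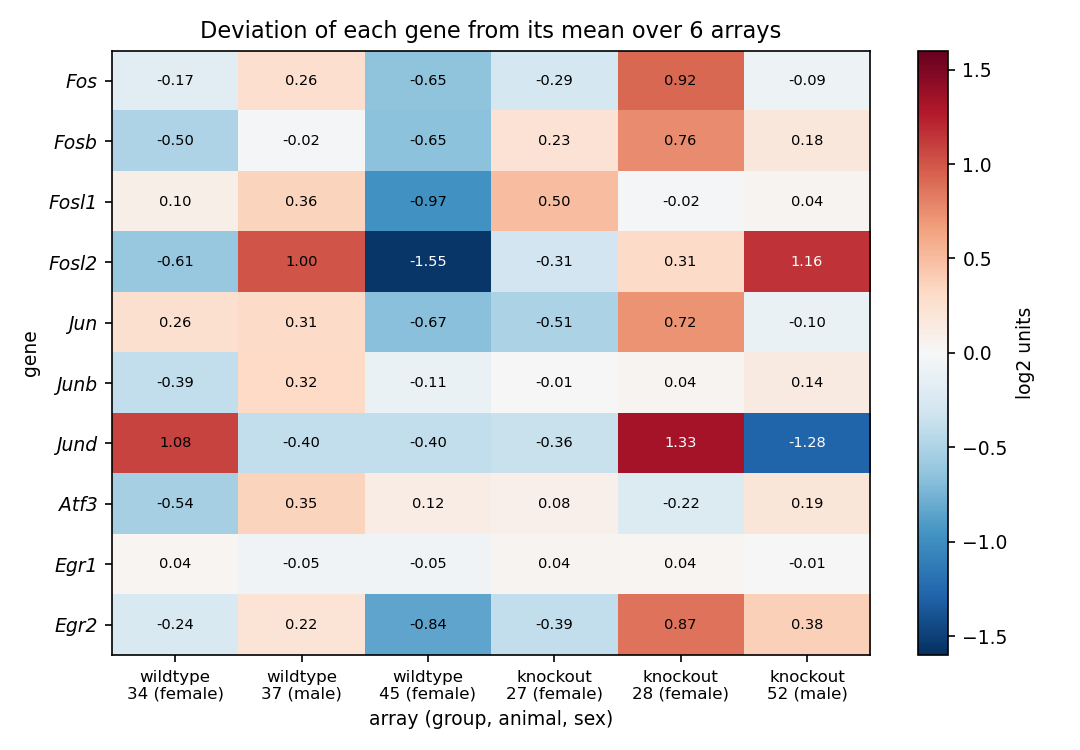
Deviation of each gene (rows) from its mean over the 6 arrays (columns, by group, animal and sex), in log2 units, red above and blue below the mean. Knockout 28 is red for most genes and wildtype 45 blue for most, while Fosl2 is highest in males 52 and 37 and Jund in animals 28 and 34.

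The genotype difference was above 0 for all 10 members in the females, and for 4 of 10 (Fosb, Fosl2, Egr1 and Egr2) in the male pair. Over all genes tested 53.9% were above 0 in the females and 50.9% in the males. The difference itself was tested as a genotype by sex interaction. No member passed limma at an adjusted p of 0.05 (0% of all genes did) and none had an unadjusted p under 0.05 (1.03% of all genes did). The interaction was -1.07 (SE 0.88) for Fos, -0.87 (SE 0.72) for Fosb and -0.72 (SE 0.95) for Jun, each with a limma adjusted p of 0.999 and a single male of each genotype. The control transcripts split the animals in another way. Among arrays with high control signal, knockout 28 exceeded the mean of wildtype 34 and 45 for 9 of 10 members, by 1.33 for Fos, 1.41 for Egr2 and 1.39 for Fosl2, where 50.8% of all genes tested did. Among arrays with low signal, the mean of knockout 27 and 52 exceeded wildtype 37 for 2 of 10, Fosb by 0.225 and Egr1 by 0.075, where 43.7% of all genes did, and differed by -0.45 for Fos and -0.62 for Jun. The high side holds 1 knockout and the low side 1 wildtype array, so either difference rests on a single animal.

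Males and females were compared with genotype in the model. The estimates were above 0 in 8 of 10 members, where 61.7% of all genes had an estimate above 0. No member passed limma at an adjusted p of 0.05, as 0.0261% of all genes did. Fosl2 alone had an unadjusted p under 0.05, against 18.7% of all genes tested. It was 12.22 on average in the 2 males and 10.60 in the 4 females, a difference of 1.62 (SE 0.40, 95% interval 0.71 to 2.53; limma adjusted p = 0.131). Both male arrays stood above all female arrays for Fosl2, Junb and Atf3, an order seen for 23.5% of all genes. Junb differed by 0.35 (SE 0.31; limma adjusted p = 0.577) and Atf3 by 0.41 (SE 0.34; limma adjusted p = 0.539). Jund went the other way, with 11.98 in the males and 13.23 in the females, a difference of -1.25 (SE 0.57, 95% interval -2.53 to 0.02; limma adjusted p = 0.276). Without wildtype 37 the Fosl2 difference was 1.16, and with arrays weighted by quality it was 1.57, which passed (limma adjusted p = 0.0354, with 0.0354 to 0.874 over the alternatives). Without knockout 52 the Jund difference was -0.74. Repeated quantile normalization moved the median sex difference of all genes from 0.18 to 0.061; relative to that median Fosl2 was 1.44 higher in males as deposited and 1.13 higher after it, and Jund differed by -1.44 and -1.77. The signs of Fos, Fosb, Fosl1 and Jun between sexes turned with that scaling. Both males had low control transcripts (8.82 and 8.91) and low lymphatic markers (7.81 and 5.99, against 8.69 to 9.66 in the females). Their keratinocyte means (8.07 to 8.30, against 8.69 to 14.00) and leukocyte means (5.08 to 5.15, against 5.46 to 6.59) were also below those of all females. The part of these in the sex differences was not tested. With high or low control signal as a block the Fosl2 difference was 1.82 and that of Jund -0.39. Knockout 27 (control transcripts 9.33, Fosl2 10.83) was the only female with low control signal. The comparison of sexes within the block therefore rests on that single female and cannot separate sex from control signal.

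**Figure D4:**
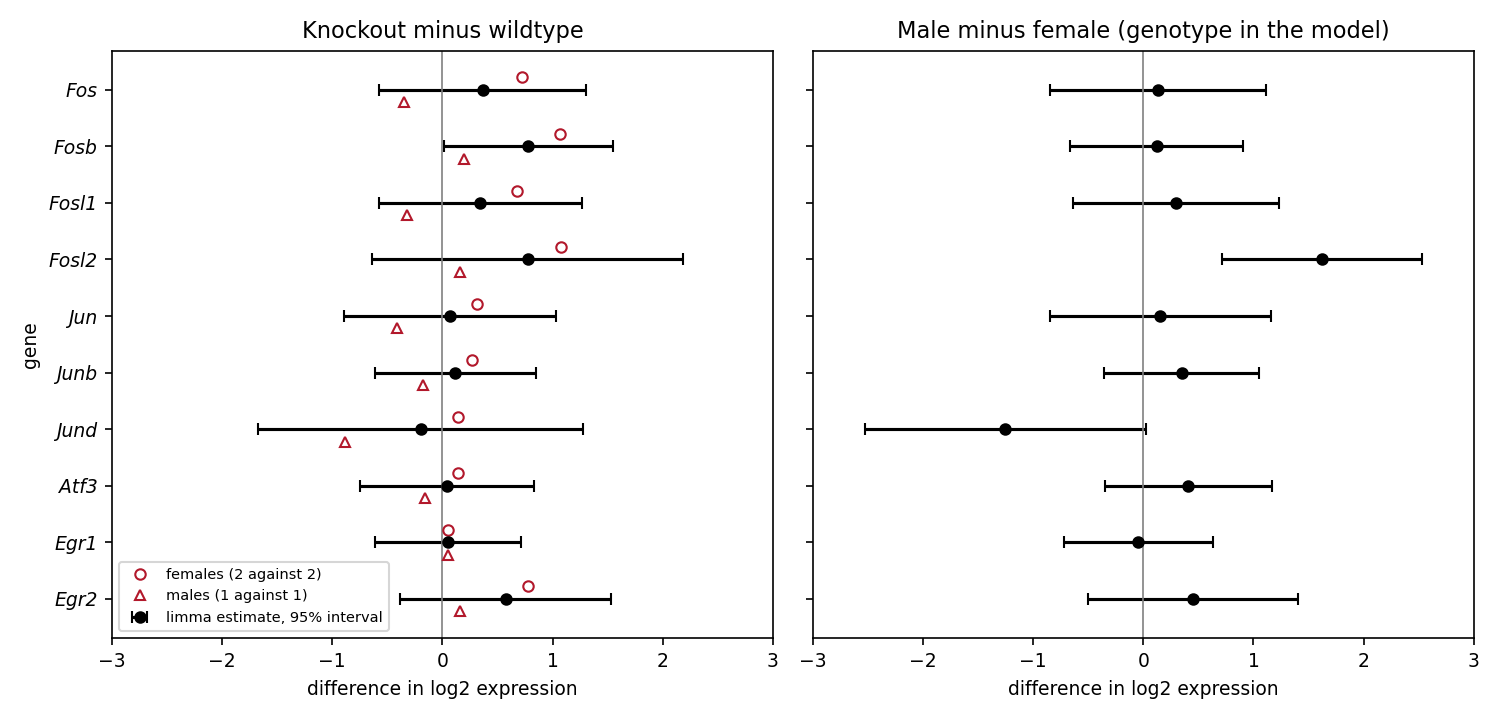
Differences in log2 expression (horizontal axis) of each gene (rows) between knockout and wildtype (left) and between males and females with genotype in the model (right), as limma estimates with 95% intervals. Red open circles and triangles give the genotype difference in females and in the male pair. On the left only the Fosb interval lies above 0 (0.01 to 1.55), and on the right only that of Fosl2 (0.71 to 2.53).

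The genes tested were ranked by likeness to Fosl2 over the 6 arrays, by root mean square difference after centring. Genes with LOC, RGD or AABR symbols, which are predicted names, were passed over. Nearest were Tbc1d25 (0.156), Bcar1 (0.194), Pigk (0.217), Armcx3 (0.222) and Jmjd8 (0.223). Bcar1 encodes a scaffold of integrin signalling. Its values were 8.59, 8.23 and 9.87 in knockouts 28, 27 and 52, against 7.88, 7.36 and 9.54 in wildtypes 34, 45 and 37. Like Fosl2, Bcar1 was highest in the 2 males and lowest in wildtype 45, which follows from its choice by likeness. The member nearest Fosl2 was Egr2, at 0.60, and the farthest Jund, at 1.48.

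Genes around AP-1 and Egr were taken from 5 lists of 112 genes in all, of which 92 were tested and 0 passed limma between genotypes. At an unadjusted p under 0.05 there were 3 (Nr4a3, Atf2 and Plaur), all with higher values in the knockout, where 1.97% of all genes passed that threshold. Of 27 other immediate early genes tested, 23 had estimates above 0 (53.8% of all genes did), with a median of 0.55. Dusp1, a phosphatase of MAP kinases, and Zfp36, which destabilises AU-rich mRNAs, lay at the ceiling, as Egr1 did, with 19.70 to 19.84 and 19.29 to 19.91. Gadd45b, a stress-response gene, was 18.95 ± 0.38 against 18.13 ± 0.81 (SD, n = 3 each). Nr4a3, an orphan nuclear receptor, had a difference of 0.97 (SE 0.38; limma adjusted p = 0.999). Its knockout values of 10.27, 9.20 and 9.84 in 28, 27 and 52 stood above the wildtype values of 8.42, 8.95 and 9.02 in 34, 45 and 37, an order seen for 3.36% of all genes tested.

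Of 24 other basic leucine zipper genes tested, 20 had estimates above 0, 3 below and 1 (Mafg) at 0, with a median of 0.29. Atf4, the factor of the integrated stress response, was 19.34 ± 0.08 against 19.12 ± 0.34, and Crem, a cAMP-responsive regulator, 12.52 ± 0.24 against 12.45 ± 0.54. The Atf4 mean lay 0.58 under the array maximum, just outside the 0.5 window. Atf2, a partner of Jun, was 12.94 ± 0.43 against 12.05 ± 0.54 (SD, n = 3 each), a difference of 0.88 (SE 0.39; limma adjusted p = 0.999). The Egr corepressors Nab1 and Nab2 differed by 0.067 and 0.060.

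Upstream kinases and ternary complex factors had estimates above 0 in 11 of 19 genes tested, with a median of 0.11. The kinase Rps6ka3 was 12.83 ± 0.54 against 12.71 ± 0.41, and Mapkapk2 9.76 ± 0.54 against 9.51 ± 0.26. Elk3, a ternary complex factor of endothelium, was 12.26 ± 0.54 against 11.86 ± 0.71 (SD, n = 3 each), and Srf differed by -0.15 (SE 0.52; limma adjusted p = 0.999). Known AP-1 or Egr targets had estimates above 0 in 14 of 20 genes tested, with a median of 0.62 and the widest spread within groups of these lists (median SD 1.02, against 0.47 over all genes). Plaur, the receptor of urokinase, was 9.56 ± 0.39 against 8.45 ± 0.44 (SD, n = 3 each), a difference of 1.11 (SE 0.37; limma adjusted p = 0.999). Its lowest knockout value, 9.28, exceeded its highest wildtype value, 8.89. The same order held for 2 of the 19 upstream genes tested and for 3.36% of all genes tested. The chemokine Ccl2 and the cytokine Il6 differed by 0.90 and 0.87, and Hbegf, a growth factor of the EGF family, was 17.65 ± 0.84 against 16.34 ± 1.90 (SD, n = 3 each). Ccl2 lay near the ceiling on arrays 27, 52 and 37, with 19.50 to 19.64 where the array maxima were 19.78 to 19.93. In wildtype 34 it had 15.98. The lowest values of Ccl2, Il6 and Hbegf were all in wildtype 34, the array with the highest keratinocyte mean.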

How the data were processed

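The labels' protocols state that 100 ng of total RNA per sample was biotinylated for Affymetrix arrays. RMA in Affymetrix Expression Console made the values, per the submitters' processing notes, and no version or build is given in the sources used here. The authors' deposited numbers are read as log2 expression, from the RMA entry and from their range, which ends at 19.93, and entered the tests without further scaling.

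Of 24834 probesets, 1646 are controls, 15049 have 1 gene symbol in the platform annotation and 8139 are unnamed here. A gene with several probesets, as 10 of the 15037 genes have, is given by the one of highest mean. A filter removed genes whose mean was below 3.52, the 25th percentile over probesets. limma 3.58.1 (R 4.3.3; lmFit and eBayes, two-sided, Benjamini-Hochberg over 11515 genes) tested genotype on 6 arrays without covariates, sex with genotype in the model, and their interaction. Alternatives were other filters, scalings, probeset summaries, weights and covariates, and leaving out each array.

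The scripts were tested on simulated data. The members and lists were chosen with earlier results of these data known. Named are Il33, all members, the 3 genes of highest mean in each list and any called. The 5 genes most like the widest-ranging member below the ceiling are also named, passing over predicted names. Srf, Nr4a3 and Plaur were added after their values were seen. The number of arrays limits the precision.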

Additional observations from a re-analysis of the deposited data

How the results depend on the processing

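No paired analysis was possible because the animals' numbers differ between the genotypes. The count of 0 members called held under all 20 alternatives, and the median member difference stayed above 0, at 0.20 to 0.49, or 0.10 to 0.45 with an array left out. The number of genes called, 1 in the main setting, was 0 with no filter on dim genes, with a filter at the 50th percentile, with each probeset on its own, with the unmoderated statistic and in the females only, and 0 to 1 with an array left out. In those settings Il33 differed by -6.84, or -6.87 in the females, without passing the adjustment, and by -7.71 to -6.34 with an array left out. Signs turned in members whose difference was small. For genotype, Jun was -0.060 with repeated quantile normalization and -0.082 with array weights, and Atf3 was -0.051 with that normalization. With control signal as a block, Jund was 0.28 and Atf3 -0.11. With the keratinocyte mean as a covariate, Junb was -0.034, Jund 0.40 and Atf3 -0.19; both settings were chosen after seeing the data, as were those for sex with an array left out or the block. Jund was 0.14 in the females only. With an array left out, Fos ran from -0.0033 to 0.60, Fosl1 from -0.057 to 0.61, Jun from -0.27 to 0.34, Junb from -0.048 to 0.31, Jund from -0.91 to 0.39, Atf3 from -0.22 to 0.23, Fosb from 0.595 to 0.965, Fosl2 from 0.19 to 1.47 and Egr2 from 0.28 to 0.91. For sex, repeated quantile normalization gave -0.13 for Fos, -0.30 for Fosb, -0.039 for Fosl1 and -0.15 for Jun, centring gave 0.050 for Egr1, and the block gave -0.25 for Fosl1. With an array left out, the sex differences ran from -0.41 to 0.67 for Fos, -0.32 to 0.55 for Fosb, -0.20 to 0.80 for Fosl1 and -0.20 to 0.52 for Jun. The causes were not tested. A ceiling window of 0.25 or 1.0 held Egr1 alone, as the main window did.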

Other observations

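Other immediate early genes also varied between the 6 animals; those named here were chosen after their values were seen. Nr4a1, an orphan nuclear receptor induced by the same stimuli, had 18.09 in knockout 28 and 15.96 to 16.70 in the other 5 arrays, a difference between genotypes of 0.78 (SE 0.45; limma adjusted p = 0.999). Rhob, an inducible small GTPase, had 15.94 in knockout 28 and 13.82 in wildtype 45, its extremes, as for Fosb. Ier2 had 13.17 to 13.62 in the knockout arrays and 11.72, 12.43 and 13.77 in wildtype 34, 45 and 37. Egr3 was highest in knockout 28 and wildtype 34 (10.94 and 10.20), as Jund was, and had 8.48 to 9.38 elsewhere. Egr4 had 4.01 to 5.28, below the highest background probeset of every array.

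Between sexes, 10 of the 27 other immediate early genes and 8 of the 20 target genes had an unadjusted limma p under 0.05, against 18.7% of all genes tested. So did 6 of the 24 other basic leucine zipper genes, 3 of the 19 upstream genes and 0 of the 2 Egr corepressors. None passed the adjustment. Both males also had low control transcripts and lower keratinocyte, lymphatic and leukocyte means than all females, and the part of these was not tested. Klf10, an early response gene of TGF-beta, had 11.70 and 11.12 in males 52 and 37 and 9.24 to 10.07 in the females, a difference of 1.78 (SE 0.31; limma adjusted p = 0.0915). Ccnd1, the G1 cyclin that AP-1 can activate, had 13.34 and 14.21 in males 52 and 37 and 11.38 to 12.23 in the females, a difference of 1.84 (SE 0.34; limma adjusted p = 0.114).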
